A study of Gossypium hirsutum with 6 samples.

Results

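Of 77357 gene models measured in leaves, ovules and fibers of allotetraploid cotton, 81 were abundant in every library, with at least 200 FPKM in each of the 6. FPKM (fragments per kilobase of model scaled to the mapped fragments of the library) is a level per length. Levels of different models are set side by side on this scale, with the limit that few reads on a short model already give a high value. The models were chosen by the lowest of their 6 values and ordered by it, and a limit of 200 models was not reached. The choice used the FPKM values described here, so the levels and their order are a description without a test.

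The libraries came from the accession TM-1 of Gossypium hirsutum, without any treatment or transgene named in the labels. Young leaves, ovules on the day of flowering (0 days post anthesis, DPA) and fibers at 14 DPA were each sampled with 2 biological replicates, and polyadenylated RNA was sequenced with strand kept. Expression in ovules was set against leaves (OL), in fibers against ovules (FO) and in fibers against leaves (FL), and these comparisons share libraries. Plant age and the number of plants behind a replicate are not stated.

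A cotton fiber is a single, very long cell that grows from the epidermis of the ovule, so an ovule library holds many cell types and a fiber library mainly one. At about 14 DPA fibers are elongating fast and the deposition of secondary wall cellulose approaches. Transcripts that are abundant in most plant tissues typically encode parts of the ribosome, translation factors, cytoskeletal proteins, ubiquitin and enzymes of central metabolism, while abundant transcripts of a leaf also include those of photosynthesis. The allotetraploid carries A and D genomes from different progenitor species, and the identifiers begin with either Cotton_A or Gorai, the style of names used for models of an A-genome and a D-genome cotton. None of the identifiers had an entry in the gene table of the species used here, so no model is given a gene name, a role or a sequence, and tissue identity could not be checked with marker genes.

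The leaf libraries were the shallowest. Their depth, recovered from whole-number ratios between FPKM values, came to 0.704 and 0.728 of that of the first fiber library, against 0.867 and 0.740 for ovules and 0.964 for the second fiber library.

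The lowest value of a model ranged from 201 to 1923 FPKM among the 81, with a median of 306. At least 300 FPKM in every library was reached by 42 models, at least 500 by 12 and at least 1000 by 4. The highest of the 6 values exceeded the lowest by 1.10 to 99.8 times, with a median of 2.77. The ratio was under 1.5 in 9 models, over 5 in 17 and over 10 in 6. It is taken over single libraries, so it holds the spread between replicates as well as differences between tissues.

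**Figure D1:**
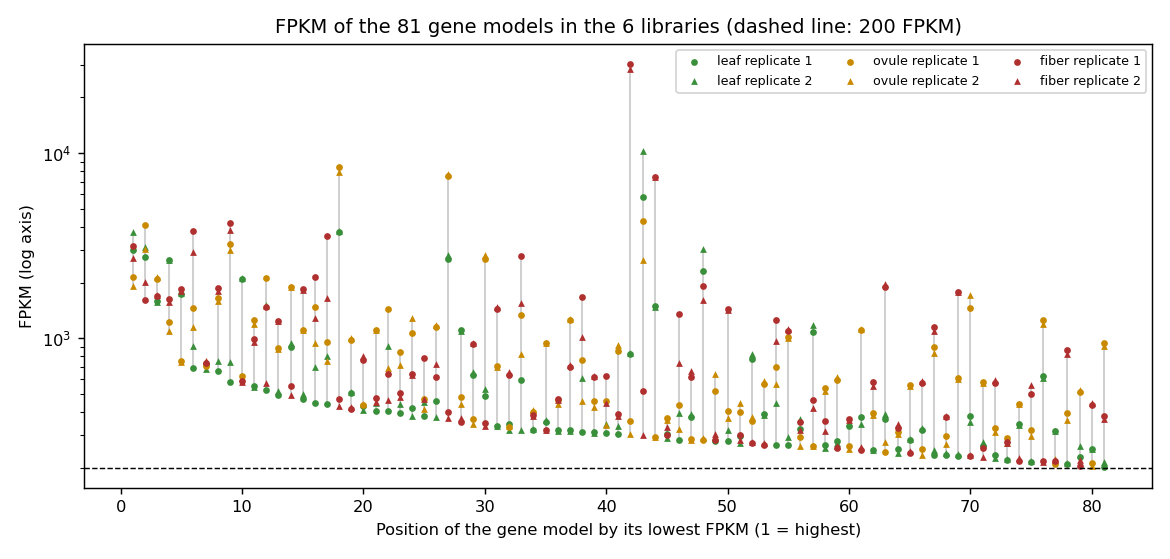
FPKM (log axis) of the 81 gene models in the 6 libraries, ordered by their lowest value from left to right; circles and triangles are replicates 1 and 2, gray lines join the lowest and highest value, and the dashed line is the limit of 200 FPKM. The lowest values fall from 1923 to 201 FPKM, and the highest single values, 30253 and 28315 FPKM, belong to the fiber libraries of Cotton_A_39373 at position 42.

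The model with the highest floor was Cotton_A_39372. Its level was 3007 and 3749 FPKM in leaves, 2153 and 1923 in ovules, and 3136 and 2718 in fibers. Ovules were below both other tissues, whereas leaf and fiber libraries overlapped.

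Cotton_A_05271 came next, with 2740 and 3093 FPKM in leaves, 4079 and 3045 in ovules and 1608 and 2002 in fibers. Very few reads were recovered for this model, as given further on. Fibers were lowest, and the leaf and ovule libraries overlapped.

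Cotton_A_35787 held 1586 and 1575 FPKM in leaves, 2081 and 2137 in ovules and 1689 and 1722 in fibers. Its replicates lay close together, with SDs between 8.39 and 40.0 FPKM, and the order was ovule, fiber, leaf without overlap. Cotton_A_19718 was the last of the 4 models above 1000 FPKM throughout, at 2639 and 2652 FPKM in leaves, 1217 and 1092 in ovules and 1621 and 1577 in fibers.

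Gorai.010G177000 was the highest placed Gorai model, with 1733 and 1760 FPKM in leaves, 758 and 742 in ovules and 1855 and 1802 in fibers. Its ovule libraries were well below the other 4. Cotton_A_19957 had 694 and 906 FPKM in leaves, 1456 and 1154 in ovules and 3799 and 2927 in fibers, in this order without overlap, and only its OL difference was not called. Its FO call was lost under quantile normalization. The remaining models of the first 10 positions were Cotton_A_19094, Cotton_A_25475, Cotton_A_12467 and Gorai.011G128200.

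Cotton_A_25475 was low in leaves (669 and 756 FPKM) and higher in ovules (1657 and 1592 FPKM) and fibers (1866 and 1790 FPKM). The same order held for Cotton_A_12467 and the opposite one for Gorai.011G128200, both described with the comparisons. At the other end, the last 3 models were Cotton_A_04272, Gorai.011G083000 and Gorai.012G172900, whose lowest values were 205, 203 and 201 FPKM. The first 3 models under the limit were Cotton_A_10586, Gorai.001G218400 and Cotton_A_20863 with 200, 198 and 198 FPKM, so nothing separated the 2 sides.

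The steadiest of the 81 was Cotton_A_19094. It held 727 and 686 FPKM in leaves, 709 and 754 in ovules and 734 and 756 in fibers, and its highest value was 1.10 times the lowest. The difference in log2(FPKM + 1) was 0.05 ± 0.05 (SE) in OL, 0.03 ± 0.05 in FO and 0.08 ± 0.05 in FL with limma adjusted p of 0.382, 0.655 and 0.202.

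Cotton_A_00933, Cotton_A_13336, Cotton_A_11018 and Cotton_A_35787 followed, with ratios of 1.28, 1.30, 1.30 and 1.36. These small differences were still larger than the spread between replicates in OL. Cotton_A_00933, for example, had 319 and 324 FPKM in leaves, 398 and 407 in ovules and 385 and 379 in fibers, and OL was 0.32 ± 0.04 (SE, log2 scale, limma adjusted p = 5.13e-04). Cotton_A_11018 had 221 and 224 FPKM in leaves, 288 and 271 in ovules and 276 and 272 in fibers. In both models leaves lay below ovules and fibers without overlap, by less than 2-fold.

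Together the 81 models held 6.36% ± 0.518 (SD, n = 2) of the summed FPKM in leaves, 8.76% ± 0.286 in ovules and 11.02% ± 0.445 in fibers. The libraries did not overlap between tissues, at 5.99% and 6.73% in leaves, 8.97% and 8.56% in ovules and 11.3% and 10.7% in fibers. With 2 libraries a tissue, no exact test of these shares could pass a threshold, and none was run. In bulk tissue, fewer cells of a type and less RNA per cell cannot be told apart.

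A single model set the order of ovule and fiber. Cotton_A_39373 alone held 3.09% and 3.03% of the fiber sums, and without it the other models held 6.28% ± 0.519 in leaves, 8.73% ± 0.283 in ovules and 7.96% ± 0.402 in fibers. The lower share in leaves did not rest on it. In leaves the largest holder was Cotton_A_05552 (0.593% and 1.009%), and in ovules it was Cotton_A_33740 (0.876% and 0.856%).

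The median FPKM of the 81 models was 377 and 385 in leaves, 611 and 603 in ovules and 588 and 557 in fibers. Among the 200 highest models of a library, 23 and 25 were of the 81 in leaves, 46 and 47 in ovules, and 45 and 42 in fibers. The number of models with at least 200 FPKM in a library was 585 and 619 in leaves, 733 and 705 in ovules and 690 and 664 in fibers. Most models that were abundant in 1 tissue were therefore below the limit in another, and 1556 models reached 200 FPKM in some library without doing so in all.

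Of the 81 models, 61 began with Cotton_A and 20 with Gorai, a Cotton_A share of 75.3%. The share was 48.8% of the 42214 models tested (mean FPKM of at least 0.5) and 51.9% of all models in the table. It was 60.0% of models whose lowest value was 50 to under 100 FPKM, and 67.8% of the 202 models at 100 to under 200. Abundance in 1 tissue went with a smaller excess, at 59.8% of models with both leaf libraries at 200 FPKM or more, 65.1% for ovules and 60.8% for fibers.

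The excess of Cotton_A models was seen at both ends of the list, at 75.0% in positions 1 to 20 and 75.4% in positions 21 to 81. By amount, Cotton_A models held 5.09% of the summed FPKM in leaves, 7.21% in ovules and 8.73% in fibers, and Gorai models 1.27%, 1.55% and 2.30%. Without the short models, taken up with the reads further on, the Cotton_A share was 72.3% of 65. Reads were recovered and accepted for only 57 Cotton_A and 8 Gorai models, so short models among the rest would have stayed in. Among these, a read on a Cotton_A model that was not short was worth 0.072 to 0.915 FPKM in fiber replicate 1. On such a Gorai model it was worth 0.038 to 0.386 FPKM. The part of model length in the share was not tested. Only uniquely mapped reads were kept in making the table, and the part of this step in the share was not tested.

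**Figure D2:**
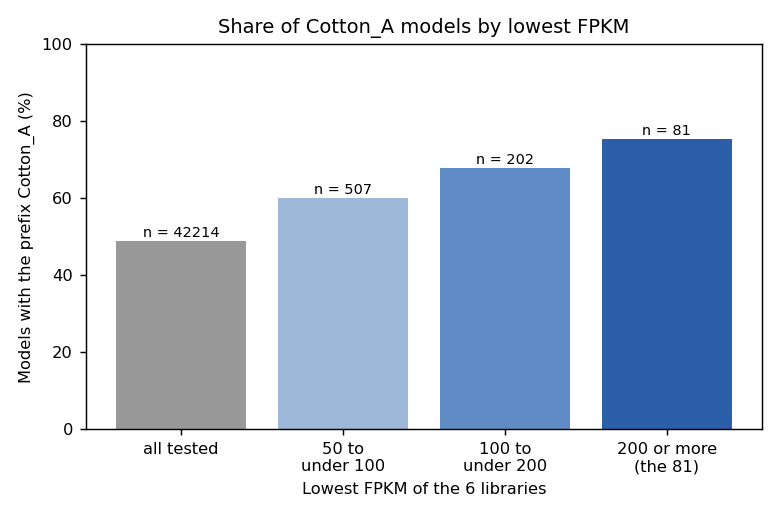
Percent of gene models with the prefix Cotton_A among all models tested and in 3 classes of the lowest FPKM of the 6 libraries; bars start at 0 and n is the number of models. The share is 48.8% of models tested, 60.0% and 67.8% in the lower classes, and 75.3% of the 81 models.

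By tissue means, 38 of the 81 models were highest in fibers, 33 in ovules and 10 in leaves, and 45 were lowest in leaves, 21 in fibers and 15 in ovules. Both leaf libraries lay below the other 4 in 34 models (42% of the 81, against 33.7% of all models tested) and above them in 8 (9.88% against 21.5%). Ovules lay above all others in 29 models (35.8% against 38.5%) and below them in 14 (17.3% against 10%, or 4228 of 42214). Fibers lay above in 34 (42% against 27.6%) and below in 20 (24.7% against 33.8%).

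The members had to be high in all libraries, which removes every model close to 0 in a tissue, so these shares and the counts that follow are descriptions beside the background. Differences between tissues were measured on the scale of log2(FPKM + 1), where a model was called at a limma adjusted p under 0.01 and a change over 2-fold. Replicates are biological per the study's methods, and the spread between them is the error used.

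In OL, 26 of the 81 models were called higher in ovules and 9 lower, which is 43.2% of the 81 beside 46.8% of all models tested. The background was 31.1% higher and 15.7% lower. The median difference of the 81 was 0.57 and that of all models 0.48.

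In FO, 14 models were called higher in fibers and 18 lower, 39.5% of the 81 beside a background of 50.3% (16.8% higher and 33.5% lower). The median difference was 0.13, and that of all models -0.42. In FL, 21 were called higher in fibers and 8 lower, 35.8% beside a background of 50.9% (25.6% higher and 25.3% lower), with medians of 0.37 and 0.04.

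**Figure D3:**
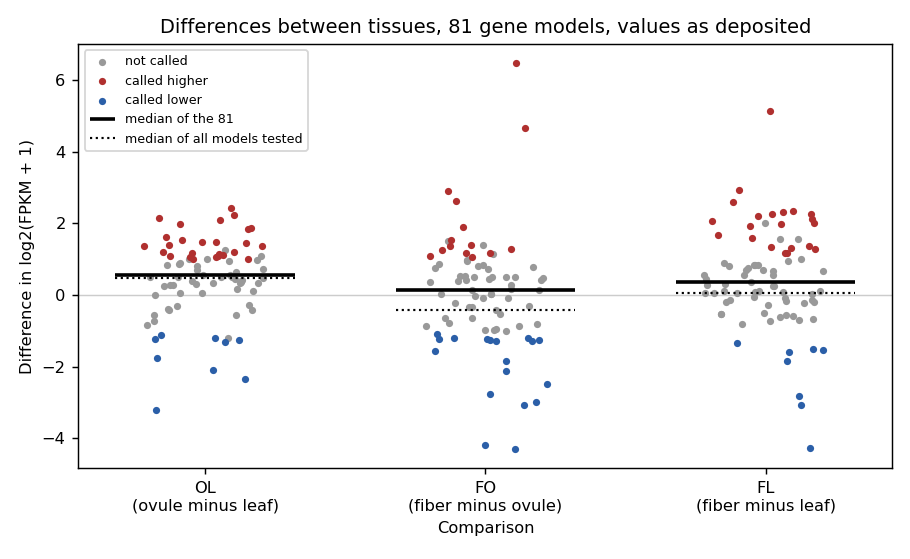
Difference in log2(FPKM + 1) between tissues for the 81 gene models in OL, FO and FL; red and blue points were called higher and lower, gray points were not called, and points are spread sideways at random for legibility. Solid lines are the medians of the 81 (0.57, 0.13 and 0.37) and dotted lines those of all models tested (0.48, -0.42 and 0.04).

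The balance of higher and lower calls moved with the scaling between libraries. FPKM values as deposited summed to between 927473 (ovule replicate 2) and 1014584 (leaf replicate 2) in a library. Quantile normalization gives every library the same distribution, and median-of-ratios scaling centres the median model. With quantile normalization the calls were 34 higher and 5 lower in OL, beside 21.8% and 19.7% of all models tested. They were 14 and 24 in FO (background 23.2% and 23.8%) and 25 and 8 in FL (27.6% and 24.2%).

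With median-of-ratios scaling the calls were 7 higher and 18 lower in OL, beside 18.1% and 21.9% of all models. They were 25 and 9 in FO (background 22.1% and 25.4%) and 18 and 9 in FL (23.6% and 28.2%). Thus 26 calls higher in OL as deposited became 34 or 7, so that the side of the background on which the 81 fell in OL and FO depended on the scaling. Without the fold threshold, on values as deposited, 47 models were higher and 17 lower in OL (background 45.2% and 20.6%), 27 and 31 in FO (23.7% and 44.0%), and 39 and 19 in FL (35.1% and 32.4%).

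The median of all models moved from 0.48 to 0.14 and 0.01 in OL under quantile and median-of-ratios scaling, from -0.42 to -0.02 and -0.10 in FO, and from 0.04 to 0.15 and -0.04 in FL. The median of the 81 was 0.75 and -0.12 in OL, -0.02 and 0.62 in FO, and 0.43 and 0.17 in FL. Calls shared by all 3 scalings were 7 of the 26 higher and 5 of the 9 lower in OL, 12 of 14 and 9 of 18 in FO, and 17 of 21 and 8 of 8 in FL. In 0 models did a call turn to the opposite direction. Each model named below for a large change was called in the same direction under all 3 scalings in the comparison it was named for. Calls of these models in another comparison were sometimes lost, as said beside them.

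The largest increase in OL was that of Gorai.003G041300. It had 486 and 533 FPKM in leaves, 2696 and 2800 in ovules and 349 and 336 in fibers. Its ovule libraries stood far above the other 4, with OL at 2.43 ± 0.06 (SE, limma adjusted p = 8.15e-07). From ovules (2748 ± 73.4 FPKM, SD, n = 2) to fibers (343 ± 9.05) it was called lower (limma adjusted p = 5.16e-07).

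Cotton_A_12467 was second, with 583 and 743 FPKM in leaves, 3211 and 2997 in ovules and 4199 and 3842 in fibers. Leaves were low and the ovule and fiber libraries high. OL was 2.24 ± 0.12 (limma adjusted p = 2.62e-05) and FL 2.61 ± 0.12 (adjusted p = 1.11e-05), while FO was 0.37 ± 0.12 and was not called.

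Gorai.012G172900, the model with the lowest floor of the 81, had 201 and 214 FPKM in leaves, 938 and 907 in ovules and 381 and 367 in fibers, with OL at 2.15 ± 0.05. Its FO call was lost under median-of-ratios scaling. Cotton_A_21384 had 379 and 354 FPKM in leaves, 1455 and 1708 in ovules and 230 and 233 in fibers, with OL at 2.10 ± 0.08. Cotton_A_29792 had 319 and 314 FPKM in leaves, 1247 and 1274 in ovules and 703 and 718 in fibers, with OL at 1.99 ± 0.04. Its FL call was lost under median-of-ratios scaling. In these 3 models ovules were above both other tissues without overlap, and the order of leaf and fiber differed between them.

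The largest decrease in OL was that of Cotton_A_34343, with 2313 and 3039 FPKM in leaves, 281 and 289 in ovules and 1906 and 1614 in fibers. Ovules formed a trough between 2 tissues with high levels. OL was -3.21 ± 0.15 (limma adjusted p = 1.64e-05) and FO 2.62 ± 0.15 (adjusted p = 3.18e-05), while FL was -0.60 ± 0.15 and was not called.

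Gorai.013G195300 fell from 1077 and 1181 FPKM in leaves to 261 and 262 in ovules, with OL at -2.11 ± 0.07, and had 462 and 420 in fibers. Gorai.011G128100, Gorai.011G128200 and Cotton_A_39373 were the other models with large decreases in OL. They belong to pairs of neighbouring identifiers and are described together with those.

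In FO, Cotton_A_39224 had 243 and 274 FPKM in ovules and 1902 and 1963 in fibers, against 366 and 391 in leaves. FO was 2.90 ± 0.07 (limma adjusted p = 8.24e-07). Cotton_A_14535 had 403 and 372 FPKM in ovules and 1447 and 1428 in fibers, against 278 and 320 in leaves, with FO at 1.89 ± 0.08. Both were higher in fibers than in either other tissue.

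The decreases in FO were led by a pair of models with like profiles. Cotton_A_12660 had 2687 and 2811 FPKM in leaves, 7537 and 7693 in ovules and 399 and 370 in fibers. Cotton_A_33740 had 3732 and 3817 FPKM in leaves, 8443 and 7935 in ovules and 471 and 429 in fibers. In both, ovules were highest and fibers lowest, with FO at -4.30 ± 0.05 and -4.18 ± 0.05 and FL at -2.83 ± 0.05 and -3.07 ± 0.05. Cotton_A_12660 and Cotton_A_33740 were the only models of the 81 called higher in OL and lower in both FO and FL on values as deposited. This pattern held 2.47% of the 81 beside 2.92% of all models tested. The OL calls of both were lost under median-of-ratios scaling.

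Cotton_A_05552 spread widely between replicates, with 5770 and 10232 FPKM in leaves, 4286 and 2638 in ovules and 520 and 300 in fibers. All libraries of a tissue lay above those of the next, from leaf to ovule to fiber. FO was -3.09 ± 0.42 (limma adjusted p = 1.41e-03) and FL -4.28 ± 0.42 (adjusted p = 3.60e-04), and OL, at -1.19 ± 0.42, was not called. The FO call was lost without fiber replicate 2 (-2.69, adjusted p = 0.0106).

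In FL, Cotton_A_05050 rose from 231 and 236 FPKM in leaves through 611 and 603 in ovules to 1767 and 1781 in fibers, with FL at 2.92 ± 0.04 (limma adjusted p = 1.27e-07). It was called in OL and FO too, and the OL call was lost under median-of-ratios scaling. Cotton_A_22634 fell in FL from 1103 and 1092 FPKM in leaves to 353 and 370 in fibers, with 482 and 439 in ovules and FL at -1.60 ± 0.06. Its call in OL, where it was lower, was lost under quantile normalization.

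**Figure D4:**
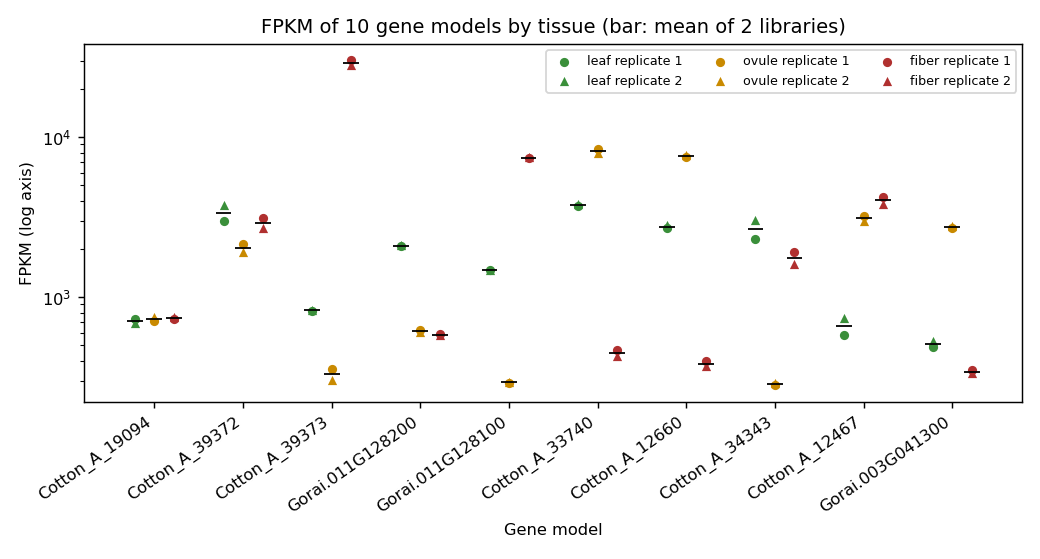
FPKM (log axis) of 10 of the 81 gene models in leaf (green), ovule (ochre) and fiber (red); circles and triangles are replicates 1 and 2 and black bars are means of 2 libraries. Cotton_A_19094 stays between 686 and 756 FPKM, Cotton_A_39373 runs from 303 FPKM in an ovule library to 30253 in a fiber library, and Cotton_A_33740 and Cotton_A_12660 lie between 7537 and 8443 FPKM in ovules and between 370 and 471 in fibers.

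In 3 cases, models next to each other in the order of identifiers were both among the 81. The first pair was Cotton_A_39372, the model with the highest floor, and Cotton_A_39373. The latter had 817 and 836 FPKM in leaves, 357 and 303 in ovules and 30253 and 28315 in fibers, the largest range of the 81. Cotton_A_39373 was thus below its neighbour in all leaf and ovule libraries and far above it in both fiber libraries. OL was -1.33 ± 0.08, FO 6.47 ± 0.08 (limma adjusted p = 4.10e-07) and FL 5.14 ± 0.08 (adjusted p = 1.59e-07).

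The second pair was Gorai.011G128100 and Gorai.011G128200. Gorai.011G128100 had 1488 and 1484 FPKM in leaves, 293 and 293 in ovules and 7447 and 7464 in fibers. Gorai.011G128200 had 2087 and 2120 FPKM in leaves, 626 and 609 in ovules and 588 and 577 in fibers. Both had less in ovules than in leaves, with OL at -2.34 ± 0.03 and -1.77 ± 0.04. They parted in fibers, where FL was 2.33 ± 0.03 for the former and -1.85 ± 0.04 for the latter, and FO was 4.66 ± 0.03 and -0.08 ± 0.04.

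In the third pair the profiles were closer. Cotton_A_00400 had 345 and 321 FPKM in leaves, 332 and 338 in ovules and 632 and 654 in fibers, and Cotton_A_00401 had 248 and 250 in leaves, 393 and 386 in ovules and 577 and 553 in fibers. Both were highest in fibers, and only the latter was above its leaf level in ovules. The SD of the log2 ratio of the models over the 6 libraries, a measure of likeness that is 0 for profiles of the same shape, was 2.93, 2.32 and 0.29 for the 3 pairs in this order. Reads that fit near-identical copies equally well are lost when unique mapping is required. Whether the models of these pairs are such copies was not tested, so their values are uncertain to that extent.

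By the same measure over 6 libraries, the model among the 81 whose profile was most like that of Cotton_A_39372 was Gorai.013G036800 (SD 0.19), at 0.117 times its level. The model closest to Cotton_A_05271 was Cotton_A_05807 (SD 0.17), at 0.122 times, and the model closest to Cotton_A_35787 was Cotton_A_13336 (SD 0.08), at 0.182 times. Cotton_A_13336 had 306 and 287 FPKM in leaves, 373 and 360 in ovules and 300 and 333 in fibers, and was itself one of the 5 steadiest models.

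Grouped by calls, 26 of the 81 models were called in none of the comparisons (32.1%, beside 24.3% of all models tested). Of the 81, 55 were called in at least 1 (background 75.7%) and 6 in all 3 (background 11.9%). These patterns hold for the values as deposited, and 14 of the 26 uncalled models had no call under either other scaling. The 26 had ratios of highest to lowest value between 1.10 and 8.04, with a median of 1.95, and 17 of them passed the adjusted p in at least 1 comparison without passing the fold threshold as well. They were the 5 steadiest models, Cotton_A_39372, Cotton_A_05271, Cotton_A_34795, Cotton_A_00400, Cotton_A_00445, Cotton_A_03127, Cotton_A_05807, Cotton_A_05940, Cotton_A_14514, Cotton_A_17555, Cotton_A_19815, Cotton_A_22235, Cotton_A_23768, Cotton_A_28801, Cotton_A_36072 and Cotton_A_40254, and the Gorai models Gorai.001G240600, Gorai.005G149100, Gorai.006G118400, Gorai.007G349900 and Gorai.013G036800. Of the 26, 8 were short in the sense given with the reads, where a wide spread between replicates was seen.

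The most frequent pattern among called models was a peak in ovules, higher in OL, lower in FO and not called in FL. It held 11 models, 13.6% of the 81 and 13.9% of all models tested, and Gorai.003G041300 and Cotton_A_21384 were the 2 that kept it under all 3 scalings. The 11 had ovule means between 517 and 2748 FPKM, leaf means between 208 and 919 and fiber means between 212 and 525. They were Gorai.003G041300, Gorai.012G172900 and Cotton_A_21384, described above, and Cotton_A_01540, Cotton_A_04272, Cotton_A_04309, Cotton_A_19129, Cotton_A_21880, Cotton_A_29083, Cotton_A_30980 and Gorai.010G202100.

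Models higher in fibers than in leaves without a call in OL or FO numbered 7 (8.64% of the 81 and 3.71% of all models), and 0 of them kept this pattern under all 3 scalings. They had medians of the tissue means of 339 FPKM in leaves, 390 in ovules and 1049 in fibers. They were Cotton_A_00401, Cotton_A_06989, Cotton_A_09062, Cotton_A_14289, Gorai.003G134700, Gorai.005G050200 and Gorai.005G093100, and 3 of them were short. Higher levels in both ovules and fibers than in leaves, without a call in FO, were seen in 6 models (7.41% beside 6.66%): Cotton_A_04857, Cotton_A_09398, Cotton_A_12467, Cotton_A_18075, Cotton_A_25475 and Cotton_A_29792. Their medians were 401, 1186 and 1475 FPKM in leaves, ovules and fibers, and Cotton_A_09398, Cotton_A_12467 and Cotton_A_18075 kept the pattern under all 3 scalings.

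The reverse, lower in both ovules and fibers than in leaves, was seen in 4 models (4.94% beside 8.64%): Cotton_A_21489, Cotton_A_22634, Gorai.011G128200 and Gorai.013G195300. Their leaf means lay between 796 and 2104 FPKM, and Gorai.011G128200 kept the pattern under all 3 scalings. Higher levels in fibers than in both other tissues, without a call in OL, were seen in 4 models (4.94% beside 10.7%): Cotton_A_12612, Cotton_A_14535, Cotton_A_19957 and Cotton_A_39224. Their fiber means lay between 842 and 3363 FPKM, and Cotton_A_12612 and Cotton_A_14535 kept the pattern. A trough in ovules with no call in FL was seen in Cotton_A_34343 and Gorai.010G177000 (2.47% beside 1.26%). A stepwise rise from leaf to ovule to fiber, called at each step, was seen in Cotton_A_05050 and Gorai.009G237900 (2.47% beside 2.58%). Of these, Cotton_A_34343 kept its pattern under all 3 scalings, and both models with the stepwise rise lost their OL call under median-of-ratios scaling. Gorai.009G237900 also lost its FO call under quantile normalization.

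Calls in a single comparison made up most of the rest, and of these models Gorai.011G083000 kept its pattern under all 3 scalings. OL alone was called higher in 5 models, 6.17% of the 81 beside 3.78% of all models (Cotton_A_02411, Cotton_A_16909, Cotton_A_18813, Cotton_A_37907 and Gorai.011G016600), with ovule means between 528 and 1229 FPKM and leaf means between 261 and 547. It was called lower in Cotton_A_19718 (1.23% beside 0.704%). FO alone was called higher in 4, 4.94% beside 1.33% (Cotton_A_01714, Cotton_A_09645, Gorai.002G268600 and Gorai.011G083000), with fiber means between 443 and 941 FPKM and ovule means between 208 and 355. It was called lower in 3, 3.70% beside 3.87% (Cotton_A_04738, Cotton_A_15919 and Cotton_A_29418), with ovule means between 555 and 989 FPKM and fiber means between 243 and 421. Gorai.002G193600, like Cotton_A_05552, was called lower in fibers than in both other tissues without a call in OL (2.47% of the 81 beside 7.34% of all models).

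A high FPKM does not always mean many reads, because FPKM divides by the effective length of a model. The smallest whole reads that explain all 6 values were recovered and accepted for 65 of the 81 models (57 Cotton_A and 8 Gorai), and these are lower bounds. A read was worth a median of 0.398 FPKM in fiber replicate 1 for these models, against 0.0847 for the 29044 models tested that gave reads. Models worth over 1 FPKM per read, called short here, were 16 of the 65 (24.6%) and 3.73% of models tested with reads. A short effective length raises FPKM by construction, and the choice of models by FPKM used that value.

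The 16 short models had between 35 and 4980 reads over the 6 libraries, with a median of 292, and the other 49 between 2084 and 96247, with a median of 7866. The lowest library of a model had under 100 reads in 14 models and under 10 in 4. The 3 models with the fewest reads were Cotton_A_34795, Cotton_A_05271 and Cotton_A_06989.

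Cotton_A_05271 stood at position 2 of the 81. Its recovered reads were 6 and 7 in leaves, 11 and 7 in ovules and 5 and 6 in fibers. Each was worth 322 FPKM in fiber replicate 1. With these lower bounds taken as the counts, the exact Poisson 95% interval of its first fiber library ran from 522 to 3753 FPKM. That of its first ovule library ran from 2036 to 7298 FPKM, for counting error only. More reads than recovered would narrow such intervals. The intervals of all 6 libraries overlapped. FO was -0.97 ± 0.18 (limma adjusted p = 4.33e-03), under the fold threshold, and that fit does not use the number of reads.

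Cotton_A_34795 had 2 and 6 reads in leaves (523 and 1518 FPKM), 10 and 6 in ovules (2123 and 1494 FPKM) and 8 and 3 in fibers (1474 and 573 FPKM). The interval of its lowest library, taken in the same way, ran from 63.3 to 1889 FPKM and so spanned the limit of 200 FPKM. The same held for the lowest library of 3 more models with under 200 reads over the 6 libraries, Cotton_A_06989 (lower bound 72.1 FPKM), Gorai.003G134700 (104 FPKM) and Cotton_A_36072 (185 FPKM). Cotton_A_06989 had 4 and 7 reads in leaves (265 and 448 FPKM), 13 and 9 in ovules (698 and 567 FPKM) and 27 and 20 in fibers (1258 and 967 FPKM). Its fiber libraries were above the others, with FL at 1.68 ± 0.29 (limma adjusted p = 3.34e-03).

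Reads were recovered and accepted for 13 of the 17 models named for large changes. No reads could be recovered for Gorai.003G041300, Gorai.011G128100 and Gorai.011G128200, and those recovered for Cotton_A_05050 were not accepted. Cotton_A_05552 and Cotton_A_39224 were short, with 80 and 98 reads in their lowest library, and the other 11 had at least 308 reads in every library. Cotton_A_39373 had 935 and 989 reads in leaves, 503 and 364 in ovules and 49133 and 44323 in fibers, and Cotton_A_39372, with the same FPKM per read of 0.616, had between 2310 and 5093. Cotton_A_33740 had 26335 and 21100 reads in ovules and 1693 and 1487 in fibers. Cotton_A_05552, worth 3.61 FPKM per read, had 2062 reads in leaf replicate 2 and 80 in fiber replicate 2.

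**Figure D5:**
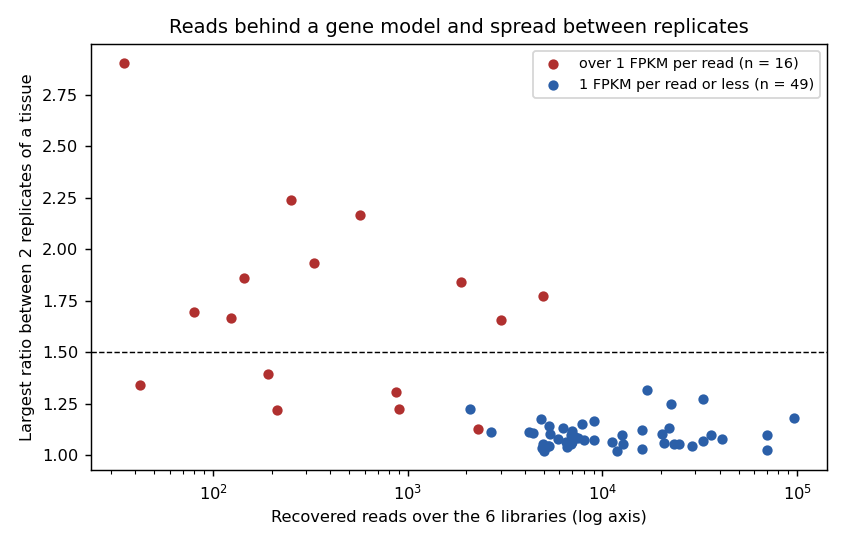
Largest ratio between the 2 replicates of a tissue against the recovered reads over the 6 libraries (log axis), for the 65 gene models with recovered reads; red points are the 16 models worth over 1 FPKM per read, blue points the other 49, and the dashed line is a ratio of 1.5. All 10 models above the line are red, and blue points reach 1.31 at most.

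Replicates of a tissue were close for most of the 81 models, with a median ratio of the higher to the lower replicate of 1.05 in leaves, 1.05 in ovules and 1.04 in fibers. A ratio over 1.5 in at least 1 tissue was seen in 10 models, and all 10 were short. The largest ratio of a model had a median of 1.68 and a maximum of 2.90 among the 16 short models, and of 1.08 and 1.31 among the other 49.

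The replicate that was higher was mostly the same. Among the 14 short models with at least 50 reads over the 6 libraries, leaf replicate 2 was above replicate 1 in 11 (median ratio 1.35), ovule replicate 1 above replicate 2 in 11 (1.31) and fiber replicate 1 above replicate 2 in 12 (1.51). Among the other 49 models the median ratios coded in the same way were 1.023, 1.006 and 1.002. The part of fragment length, or of any other step of library preparation, in this spread was not tested.

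The choice can also be made on the libraries of 1 replicate number and read in those of the other. The models that pass in both are the 81 by construction, so the counts describe only how many models were added. Not all of the added models were near the limit in the other replicate. Of 86 models with at least 200 FPKM in the 3 libraries of replicate 1, 81 (94.2%) were at 200 or more in all 3 of replicate 2, and the lowest value seen there was 142 FPKM. Of 95 models chosen on replicate 2, 81 (85.3%) were at 200 or more in replicate 1. Cotton_A_29302, one of those lost, was listed at 0 in leaf replicate 1, with 3397 and 1474 FPKM in the ovule and fiber libraries of replicate 1. Its fiber value was the same as that of Cotton_A_34795 in that library, for which 8 reads were recovered. The reads behind Cotton_A_29302 itself are not given here.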

How the data were processed

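Strand-specific mRNA-seq was single-end. Per the study's methods and the submitters' processing notes (CASAVA 1.8, TopHat, Cufflinks), reads were mapped, uniquely mapped reads kept and abundance estimated over annotated models, and the authors deposited 1 table of FPKM with 1 column per library. Versions of the other tools were not given in the sources used here. Mapping to the TM-1 genome is stated in the methods, but 11 gene identifiers from the study's text were looked up and 0 were in the table, whose identifiers are of another style. This conflict was not settled, so the build and annotation behind the table are uncertain. FPKM is relative to a library's total, and dividing by a short effective length gives few reads a high value.

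Groups came from the sample titles. The 42214 models whose mean FPKM reached 0.5 were compared on the scale log2(FPKM + 1) in R 4.3.3 with limma 3.58.1, as 1 fit over 6 libraries with trend and robust empirical Bayes and Benjamini-Hochberg adjustment over all models tested. A fold change on this scale understates changes of low values. The procedure was tested on simulated data. Whole reads were recovered with a tolerance of 0.05 of a read, and reads were accepted where at least 3 other models had the same FPKM per read or the lowest library had at most 100 reads. Recovered reads did not enter the calls.

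Named models were the 10 with the highest lowest value, the 5 with the smallest ratio of highest to lowest, up to 5 called models per comparison and direction with the largest change and no overlap, the 3 last inside and 3 first outside the limit, the 3 with the fewest reads, and the models closest in profile to the first 3. Cotton_A_00400, Cotton_A_00401, Gorai.009G237900, Cotton_A_29302 and the models listed by pattern were named after their values were seen. The models and the rules were chosen with earlier results of these data known. Alternatives covered scaling, pseudocount, filter, replicate block, calling rule (for counts of called models only), the choice of models and each library left out.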

Additional observations from a re-analysis of the deposited data

How the results depend on the processing

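The log2 changes of the models named for large changes were followed through 386 values under alternatives, of which 384 kept direction and call, 0 reversed and 2 lost the call, both of Cotton_A_05552 in FO (-3.09, limma adjusted p = 0.0134 with the replicate block, and -2.69, adjusted p = 0.0106 without fiber replicate 2). The study's own calling rule (over 2-fold and an analysis of variance P under 0.01) was not among these 386 values. Calls without a fold threshold were also left out of them. The median of the 81 models reversed in OL under median-of-ratios scaling (-0.12) and in FO under quantile normalization (-0.024).

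Without a fold threshold, 47 of the 81 were higher and 17 lower in OL (45.2% and 20.6% of all models tested). The counts were 27 and 31 in FO (23.7% and 44.0%), and 39 and 19 in FL (35.1% and 32.4%). Under median-of-ratios scaling the counts were 7 and 18 in OL (18.1% and 21.9% of all models) and 25 and 9 in FO (22.1% and 25.4%). In this scaling 19 models had their highest mean in leaves. Quantile normalization gave 5 lower in OL (19.7% of all models). Of all models, 7651 were higher in OL under median-of-ratios scaling, and with a mean FPKM of at least 5 the counts were 7734 higher and 3609 lower in OL, 4266 and 7909 in FO and 6678 and 5823 in FL, where fewer models were tested. The causes of the other shifts were not tested.

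The rule at 100 FPKM gave 283 models holding 10.3%, 16.9% and 19.3% of the summed FPKM in leaves, ovules and fibers, and at 500 FPKM 12 models holding 1.89%, 2.12% and 2.34%. Chosen after quantile normalization the models held 9.50% in ovules and 11.6% in fibers, and after median-of-ratios scaling 6.89%, 10.7% and 12.4% in the 3 tissues. Chosen on tissue means they held 9.74% in ovules and 12.9% in fibers. Alternatives added after seeing the data were leaving out Cotton_A_39373 (7.96% in fibers) and the short models (4.54%, 6.72% and 8.78%). Leaving out 1 library at a time before choosing gave 81 to 94 models, holding 6.36% to 6.67% in leaves, 8.76% to 9.95% in ovules and 11.02% to 12.9% in fibers, with the highest ovule and fiber shares without leaf replicate 1. Chosen on replicate 2 in place of replicate 1, 85.3% were kept.

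Leaving out 1 library at a time kept the counts of the 81 at 25 to 27 higher and 9 lower in OL, 13 to 15 higher and 18 to 21 lower in FO, and 19 to 22 higher and 8 lower in FL. Whether same-numbered libraries pair is not stated. Their deviations correlated at -0.06, -0.06 and 0.05 over 42214 models. This shows no shared effect over most models but cannot exclude a shared plant or harvest. With the replicate block, 27 were higher and 9 lower in OL, 14 and 17 in FO, and 19 and 8 in FL. With 2 libraries a tissue and few reads behind the short models, small differences are not resolved.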

Other observations

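Short models outside the 81 were looked at after the values of the 81 had been seen. Those worth over 1 to 10 FPKM per read differed between replicates in the same order as the short models of the 81. In 220 other models worth over 1 to 10 FPKM per read, the median ratio was 1.28 for leaf replicate 2 over replicate 1, 1.11 for ovule replicate 1 over replicate 2 and 1.32 for fiber replicate 1 over replicate 2, with 71.4%, 65.5% and 70.5% of models above 1. Among the 14 other models worth over 10 FPKM per read, these medians were 1.25, 1.05 and 1.51. Of the 14, 7 were above 1 in leaves, 8 in ovules and 10 in fibers. Leaves and ovules thus showed little or no common direction in this class. In 14396 other models worth under 0.1 FPKM per read the medians were 1.005, 1.011 and 0.992.

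Several of the 81 models had the same FPKM per read, as models of the same effective length would. Cotton_A_17555, Cotton_A_19129, Cotton_A_39372 and Cotton_A_39373 shared 0.616, Cotton_A_12660, Cotton_A_28801 and Cotton_A_29418 shared 0.410, and Cotton_A_06989 and Gorai.003G134700 shared 46.6. The recovered reads of Gorai.003G134700 were 9 and 5 in leaves, 25 and 13 in ovules and 60 and 32 in fibers.

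Most of the 14 models that were chosen on replicate 2 but not on replicate 1 fell short in leaf replicate 1, among them Cotton_A_35029 with 104 FPKM there and 14697 FPKM in fiber replicate 1.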
